A study of Mus musculus with 6 samples.

Results

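Lpl, Gpihbp1, Cd36 and Vldlr encode a lipase, the protein that anchors it to capillaries, a fatty acid receptor and a lipoprotein receptor. These 4 of the 3257 genes analysed were chosen by name, with their change between wild-type and UXT knockout cells already known. Their values in that contrast are therefore given as a description, with no test. RNA was sequenced from primary Sertoli cells, the somatic cells that nurse germ cells in the seminiferous tubule, taken from C57BL/6 mice and enriched over 24 h of differential plating. In the wild-type group, 3 libraries came from cells of wild-type animals that had been infected with an empty plasmid. In the knockout group, 3 libraries came from cells of UXT KO animals that had received a viral construct with Cre recombinase. The UXT protein (ART-27) resembles prefoldin subunits and binds the androgen receptor. Cells of both groups were infected 2 times, for 24 h each. Cre was given to the knockout group alone, so effects of the construct and of losing UXT cannot be told apart. Neither the animals' age, nor the form of the Uxt allele, nor whether each library had its own animal or culture was given in the sources used here. The spread between libraries may therefore be technical. A value for Uxt itself was not analysed here, so the genotype labels were not checked against it.

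Lipoprotein lipase, the product of Lpl, is secreted by parenchymal cells and hydrolyses the triglycerides of chylomicrons and very low density lipoproteins. GPIHBP1 is a protein of capillary endothelial cells that carries the enzyme to the lumen of the vessel and holds it there. The fatty acids released are taken up in part through CD36, a scavenger receptor of adipocytes, muscle, endothelium and macrophages. VLDLR binds lipoproteins that carry apolipoprotein E and helps lipase-bearing particles to dock. Sertoli cells are known to oxidise fatty acids and to store lipid from the residual bodies they engulf, while passing lactate to germ cells.

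In GRCm38, the assembly also called mm10, the 4 genes lie on 4 chromosomes. Lpl (gene ID 16956) is at chromosome 8, 68880491 to 68907448, on the plus strand. Gpihbp1 (gene ID 68453) is at chromosome 15, 75596628 to 75599481, on the plus strand. Cd36 (gene ID 12491) is at chromosome 5, 17781690 to 17888801, on the minus strand. Vldlr (gene ID 22359) is at chromosome 19, 27216484 to 27254231, on the plus strand. No other annotated gene overlapped any of them (0 in the GENCODE annotation used).

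Promoter sequences of Cd36 and Vldlr were found in the RefSeq table used here (GRCm38.p6), and none was used for Lpl and Gpihbp1. They are shown because they were available, and their part in the lower values of these genes was not tested. Each of the first pair is the 250 bases before a RefSeq start, and capitals mark motif matches. The third is a stretch of 30 bases before a second Vldlr start, printed in part since an annotated exon of Vldlr covers that window. The windows are chr5:17835897-17836146 on the minus strand for Cd36, and chr19:27216234-27216483 and chr19:27216809-27216838 on the plus strand for Vldlr. The Cd36 window lies inside the gene span given above, before an internal start and not before the annotated 5' end of the gene.
Cd36 promoter: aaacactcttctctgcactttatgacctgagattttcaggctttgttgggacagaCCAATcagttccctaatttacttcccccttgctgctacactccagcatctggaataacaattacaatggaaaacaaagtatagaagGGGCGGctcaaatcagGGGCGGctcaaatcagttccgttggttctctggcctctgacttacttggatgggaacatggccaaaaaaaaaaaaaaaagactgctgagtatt
Vldlr promoter, first start: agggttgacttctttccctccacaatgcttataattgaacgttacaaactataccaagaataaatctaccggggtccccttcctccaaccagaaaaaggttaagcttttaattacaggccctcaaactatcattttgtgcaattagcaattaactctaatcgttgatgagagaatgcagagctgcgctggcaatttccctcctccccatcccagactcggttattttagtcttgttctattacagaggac
Vldlr site before the second start: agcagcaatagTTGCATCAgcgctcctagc

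Motifs were searched on both strands in the 250 bases before each start and were picked after the windows had been seen. The Cd36 window held 1 CCAAT box and 2 copies of the GC box, whose letters are GGGCGG. The former was found in 33.8% and the latter in 32.7% of all 32851 windows of that length. The window of the first Vldlr start matched none of the motifs searched. The window of the second start held 1 copy of each of these boxes and 1 match to TTGCATCA, capitalised above, a composite element bound by ATF4 and C/EBP proteins in the integrated stress response. TTGCATCA was in 0.791% of all windows (260 windows), and it began 200 bases before that start. The letters of the TATA box, TATAAA, were not in these 3 windows (12.4% of all windows held them). Nor were those of the MYC type of E-box, CACGTG (6.02%), or of the sterol response element, TCACNCCAC (1.05%). These matches describe letters only.

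Lpl transcripts were lower in all 3 knockout libraries. The deposited log2 value of Lpl was 12.69, 12.57 and 12.60 in wild-type replicates 1 to 3 and 10.12, 10.64 and 10.89 in knockout replicates 1 to 3. The wild-type libraries lay close together and far above the knockout libraries, which were spread out, with replicate 1 lowest. The group means were 12.62 ± 0.06 and 10.55 ± 0.40 (SD, n = 3 each), a difference of -2.07. The fold in the authors' deposited table was 6.62, and 6.83% of the 2210 lower genes had a larger one. The lowest wild-type value stood 1.68 above the highest knockout value on the log2 scale.

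Gpihbp1 had the largest fold of the 4. Its deposited log2 value was 7.30, 7.19 and 7.36 in the wild-type libraries and 5.64, 5.64 and 5.62 in the knockout libraries. The groups did not overlap, and the knockout values were nearly equal. Means were 7.28 ± 0.08 and 5.63 ± 0.013 (SD, n = 3 each), a difference of -1.65. In the authors' deposited table the fold was 68.2, which placed Gpihbp1 at rank 2 of the 2210 lower genes. The difference of library values was thus 0.271 of the log2 fold of -6.09 in the authors' deposited table. For Lpl, Cd36 and Vldlr this ratio was 0.759, 0.645 and 0.652. Over all genes the median ratio was 0.244 in the 815 genes with the lowest mean values and 0.654 in the 814 with the highest, and the cause was not tested. Sizes of difference are therefore set side by side between the 4 genes only by the authors' fold.

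Cd36 was lower by an intermediate amount. Its deposited log2 value was 11.59, 11.59 and 11.48 in the wild-type libraries and 10.27, 10.19 and 10.52 in the knockout libraries. All 3 knockout values lay below all wild-type values, with replicate 3 the highest of the knockout group. Means were 11.55 ± 0.07 and 10.32 ± 0.17 (SD, n = 3 each), a difference of -1.23. The fold in the authors' deposited table was 3.74, and 22% of the lower genes had a larger one.

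Vldlr had the smallest fold of the 4. Its deposited log2 value was 12.31, 12.24 and 12.02 in the wild-type libraries and 11.12, 11.38 and 11.31 in the knockout libraries. The groups did not overlap, with a gap of 0.65 on the log2 scale. Means were 12.19 ± 0.15 and 11.27 ± 0.13 (SD, n = 3 each), a difference of -0.92. The fold in the authors' deposited table was 2.67, near the median of 2.33 of all lower genes, and 38.5% of the lower genes had a larger one.

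**Figure D1:**
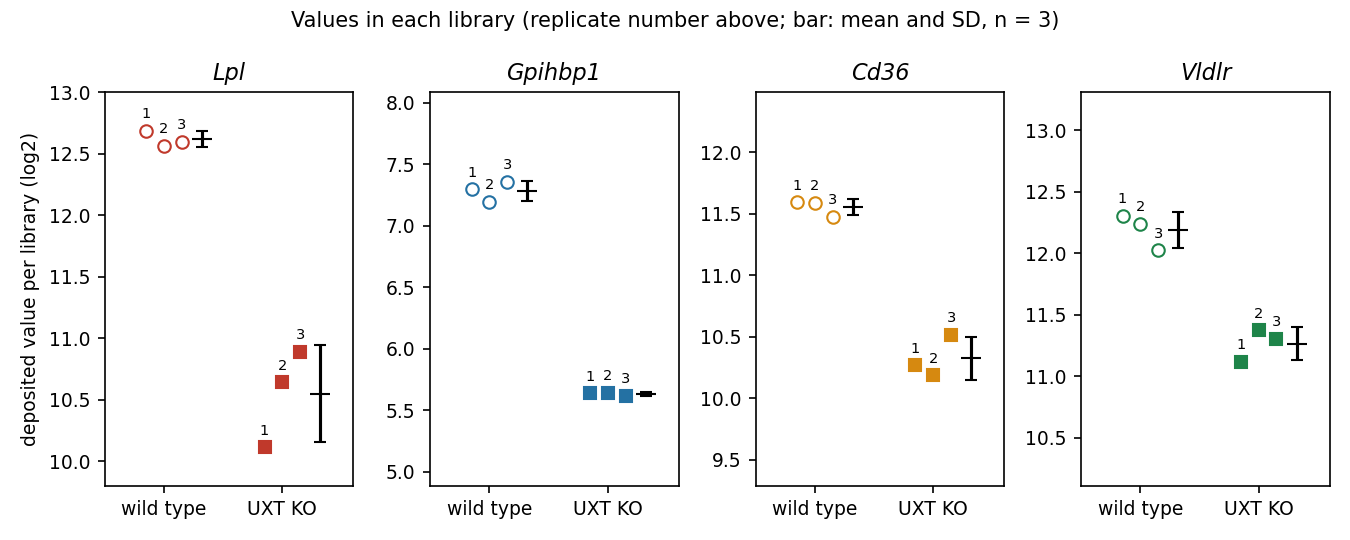
Deposited log2 value of Lpl, Gpihbp1, Cd36 and Vldlr in each library (vertical axis, same span in every panel), by group, with the replicate number above each point and the mean ± SD (n = 3) as a bar. In every panel the 3 knockout libraries (squares) lie below the 3 wild-type libraries (circles).

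All 4 members were lower in the knockout with no overlap between groups, in a table where 65.8% of genes were lower without overlap and 97.5% did not overlap in either direction. The direction of the 4 held under both rescalings of the libraries, although sizes shrank. Both rescalings rest on a table of selected genes, 67.9% of them lower. They can therefore also remove real change and turn small falls. After quantile normalization the median difference of all genes rose by 0.33 on the log2 scale, from -0.40 to -0.07. The difference was then -1.90 for Lpl, -1.26 for Gpihbp1, -1.07 for Cd36 and -0.75 for Vldlr, each below that median.

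The spread between replicates differed among the 4. It did not enter the choice of the 4 by name, but it could enter through the authors' selection of the table. Across the knockout libraries Lpl spanned 0.77 on the log2 scale, or 1.71-fold, against 0.12 across the wild-type libraries. Its knockout SD was larger than that of 97.1% of the 308 genes within 0.5 of its mean log2 value over all 6 libraries. Its wild-type SD was larger than that of 41.2% of them. Genes at a level were thus not matched on their knockout values, here or for the other members. A ratio of knockout to wild-type SD as high as that of Lpl, 6.21, was seen in 4.73% of all genes. The knockout SD of Cd36 was above that of 77.8% of 400 genes at its level, and that of Vldlr above 58.2% of 294 genes. Gpihbp1 stood at the other end, with a knockout SD above only 0.336% of 298 genes at its level and above 3.59% of all genes. Since the library differences of Gpihbp1 were far smaller than its fold in the authors' deposited table, this narrow spread is no measure of precision. Knockout replicates did not fall in 1 order: replicate 1 was lowest for Lpl and Vldlr, replicate 2 for Cd36 and replicate 3 for Gpihbp1.

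**Figure D2:**
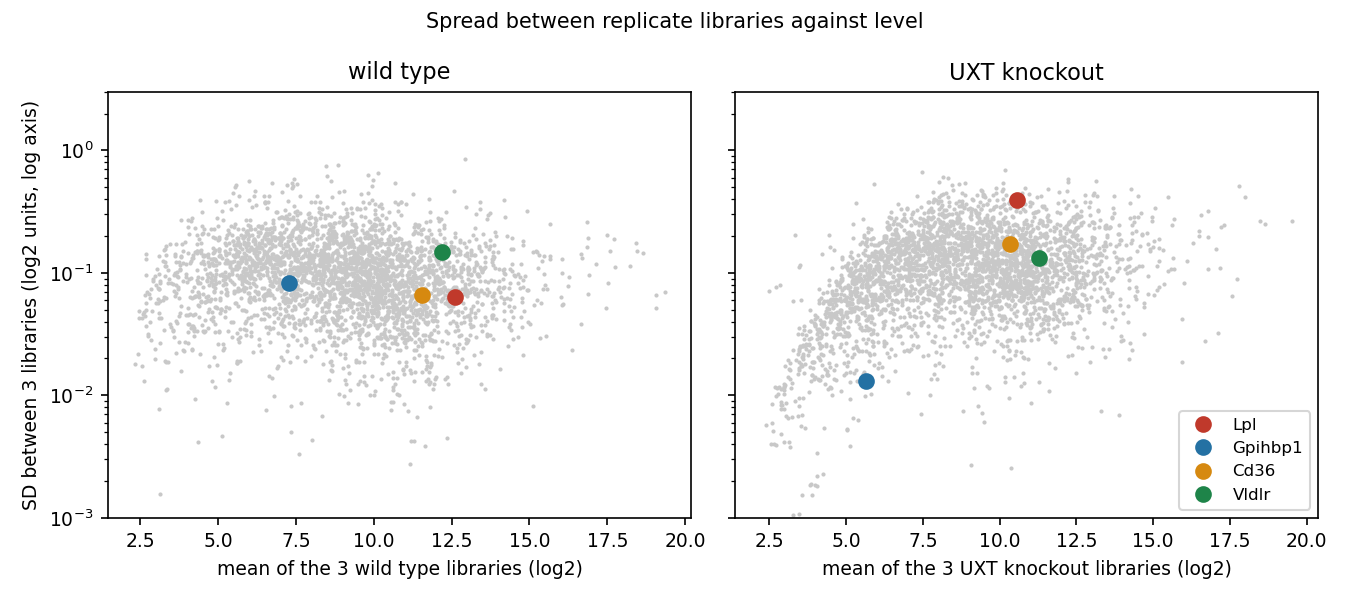
SD between the 3 libraries of a group (vertical log axis, log2 units) against the mean deposited log2 value (horizontal axis) for all genes in grey and the 4 members in colour, in wild-type (left) and knockout cells (right). Lpl has a knockout SD of 0.40 near the top of the cloud and Gpihbp1 one of 0.013 near the bottom, and 3 wild-type and 26 knockout points under 0.001 lie off the axis.

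The genes nearest in profile were those with the smallest root mean square difference over the 6 libraries, after each gene was centred on its wild-type mean. For Lpl these were Tmem255a (0.093 on the log2 scale), Nxf3 (0.101), an RNA export factor gene expressed in Sertoli cells, and the stress cytokine gene Gdf15 (0.123). Nxf3 stood at 10.75, 10.91 and 10.89 in the wild-type and 8.39, 8.75 and 9.13 in the knockout libraries, with replicate 1 lowest as for Lpl. For Gpihbp1 the nearest were the chemokine gene Pf4 (0.107), the kinase gene Dclk3 (0.109) and Rhpn2 (0.116). For Cd36 they were Tyrobp (0.064), an adaptor of myeloid receptors, the complement receptor gene C3ar1 (0.068) and Cyth4 (0.077). Tyrobp stood at 8.87, 8.90 and 8.66 in the wild-type and 7.53, 7.53 and 7.86 in the knockout libraries, with knockout replicate 3 highest as for Cd36. For Vldlr they were the interferon-induced gene Gbp2 (0.050), the chemokine gene Ccl4 (0.065) and Txnip (0.071), whose product binds thioredoxin. The measure is on the scale of the library values, which does not follow the authors' fold at low expression: in the authors' deposited table Ccl4 had a fold of 16.0 beside 2.67 for Vldlr, and Pf4, Dclk3 and Rhpn2 had folds of 9.98, 12.1 and 9.54 beside 68.2 for Gpihbp1. No member was among the 3 nearest genes of another. Likeness over 6 libraries of 2 groups says nothing of shared function.

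Of 234 genes of lipid handling in 7 lists, 49 were in the table. Leaving out the 4 members, 31 of the other 45 fell and 14 rose by limma with Benjamini-Hochberg adjustment over all genes (called at an adjusted p below 0.05 and where the authors' deposited table gave a fold of 1.5 or more). Over all genes of the table, 99.6% were called, 67.5% as lower and 32.1% as higher, since the authors had selected it on these libraries. By its name the authors' table was cut at 1.5-fold up or down and a p of 0.05. The fold condition was thus met in advance, and the adjusted p values describe genes already selected. After quantile normalization 22 of the 45 were called lower and 14 higher, while 67.3% of all genes were called, 35.1% as lower and 32.2% as higher. After centring each library on its median 19 were called lower and 14 higher, while 65.7% of all genes were called, 31.4% as lower and 34.3% as higher. For the other list genes no value was analysed here, so whether they missed this cut or were not expressed was not examined.

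Of the genes that act with lipoprotein lipase or modify lipoproteins, 10 of 26 were in the table. Besides Lpl and Gpihbp1, 6 fell and 2 rose, against 4 lower and 2 higher after quantile normalization and 3 lower and 2 higher after centring. The syndecan gene Sdc4, whose product carries heparan sulfate, stood at 16.03, 16.14 and 16.07 in the wild-type and 14.43, 14.50 and 14.65 in the knockout libraries, 5.09-fold lower in the authors' deposited table (limma adjusted p = 4.13e-06). Its groups were far apart and each was tight. Sort1, which encodes the sorting receptor sortilin, fell 3.74-fold and Creb3l3, a regulator of triglyceride genes, 5.38-fold in the authors' deposited table, and Creb3l3 was no longer called after centring. Apoc1, an apolipoprotein gene, was 4.19-fold lower in the authors' deposited table, but its groups overlapped, since wild-type replicate 2 stood at 5.0 beside 4.95 to 5.06 in the knockout. Apoc1 was not called after either rescaling.

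Another lipase gene of the list was higher. Lipg, which encodes endothelial lipase, stood at 7.59, 7.60 and 7.59 in the wild-type and 8.42, 8.42 and 8.21 in the knockout libraries, and rose 2.92-fold in the authors' deposited table (limma adjusted p = 1.37e-04). Another syndecan gene, Sdc1, stood at 13.74, 13.80 and 13.82 in the wild-type and 14.44, 14.58 and 14.08 in the knockout libraries and rose 1.86-fold in the authors' deposited table. Lipg and Sdc1, named with their values already seen, were also called higher after either rescaling.

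Of 35 genes for lipoprotein receptors and their ligands, 10 were in the table. Besides Vldlr, 8 fell and 1 rose, against 7 lower and 1 higher after quantile normalization and 6 lower and 1 higher after centring. Lrp4, a gene of the same receptor family as Vldlr, named with its value known, rose 1.95-fold in the authors' deposited table. Lsr, the lipolysis-stimulated receptor gene, fell 5.73-fold and Apoe, which encodes a ligand of VLDLR, 4.02-fold in the authors' deposited table. The scavenger receptor genes Msr1, Stab1 and Marco fell 5.85-fold, 3.76-fold and 3.09-fold, and Abcg1, a cholesterol exporter gene, 3.6-fold in the authors' deposited table. Apod, an apolipoprotein gene named with its value known, turned from a difference of -0.24 to 0.12 after quantile normalization and to 0.06 after centring.

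Of 33 genes for fatty acid uptake and activation, 7 were in the table. Besides Cd36, 5 fell and 1 rose, against 3 lower and 1 higher after either rescaling. Slc27a6, a fatty acid transport protein gene, stood at 10.25, 10.48 and 10.47 in the wild-type and 8.80, 9.03 and 9.35 in the knockout libraries, a fall of 4.33-fold in the authors' deposited table (limma adjusted p = 4.59e-05). Mfsd2a, which encodes a transporter of lysophosphatidylcholine, was called lower, with a fold of 3.53 in the authors' deposited table. The fatty acid binding protein genes Fabp4, Fabp7 and Fabp5 fell by folds of 2.97, 2.40 and 1.93 in the authors' deposited table. Fabp4 and Fabp7 were not called after either rescaling, and Fabp7 turned to 0.15 after centring. Acsbg1, an acyl-CoA synthetase gene named after its value was seen, rose 1.82-fold in the authors' deposited table.

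Of 37 genes for triglyceride storage and lipolysis, 5 were in the table, with 4 lower and 1 higher (3 lower and 1 higher after either rescaling). Gpd1, which makes glycerol 3-phosphate, fell 6.56-fold, the acyltransferase genes Mogat2 and Agpat4 6.01-fold and 2.37-fold, and Cideb, a lipid droplet protein gene, 2.20-fold in the authors' deposited table. Cideb turned to 0.026 after quantile normalization and to 0.14 after centring. Mgll, which encodes the lipase for monoglycerides, stood at 9.91, 10.12 and 9.85 in the wild-type and 10.77, 11.16 and 11.05 in the knockout libraries and rose 3.12-fold in the authors' deposited table (limma adjusted p = 7.25e-05).

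Of 44 genes for fatty acid oxidation, 4 were in the table, and all 4 rose, also after either rescaling. Among all genes of the table, 32.1% were called higher as deposited, 32.2% after quantile normalization and 34.3% after centring. Of all protein-coding gene names in the annotation, 13.9% were in the table. Cpt1a, which encodes the enzyme that admits long-chain fatty acids to mitochondria, stood at 13.76, 13.84 and 13.82 in the wild-type and 14.22, 14.20 and 14.24 in the knockout libraries. Its rise was 1.54-fold in the authors' deposited table (limma adjusted p = 7.32e-04). The thioesterase gene Acot2 rose 2.32-fold, Acad12 1.83-fold and the mitochondrial carrier gene Ucp2 1.69-fold in the authors' deposited table. The rest of this list was not among the genes analysed, so the 4 do not stand for the whole list.

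Of 29 genes for fatty acid synthesis and desaturation, 9 were in the table, with 6 lower and 3 higher (4 lower and 3 higher after quantile normalization, 3 and 3 after centring). Hacd4, Fads6 and the desaturase genes Fads2 and Scd2 fell 3.26-fold, 2.61-fold, 1.94-fold and 1.78-fold, and Acss2 1.62-fold, in the authors' deposited table. Elovl4, an elongase gene, rose 2.02-fold in the authors' deposited table. Scd2 and Acss2 were not called after either rescaling. Of 31 genes for transcription factors that respond to lipids and their partners, 4 were in the table. Cebpd fell 2.57-fold and Nr1h3, which encodes LXR alpha, 1.77-fold, while Cebpa rose 2.13-fold and Scap, the SREBP escort gene, 1.5-fold in the authors' deposited table. Nr1h3 turned from -0.28 to 0.16 after quantile normalization and to 0.014 after centring.

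**Figure D3:**
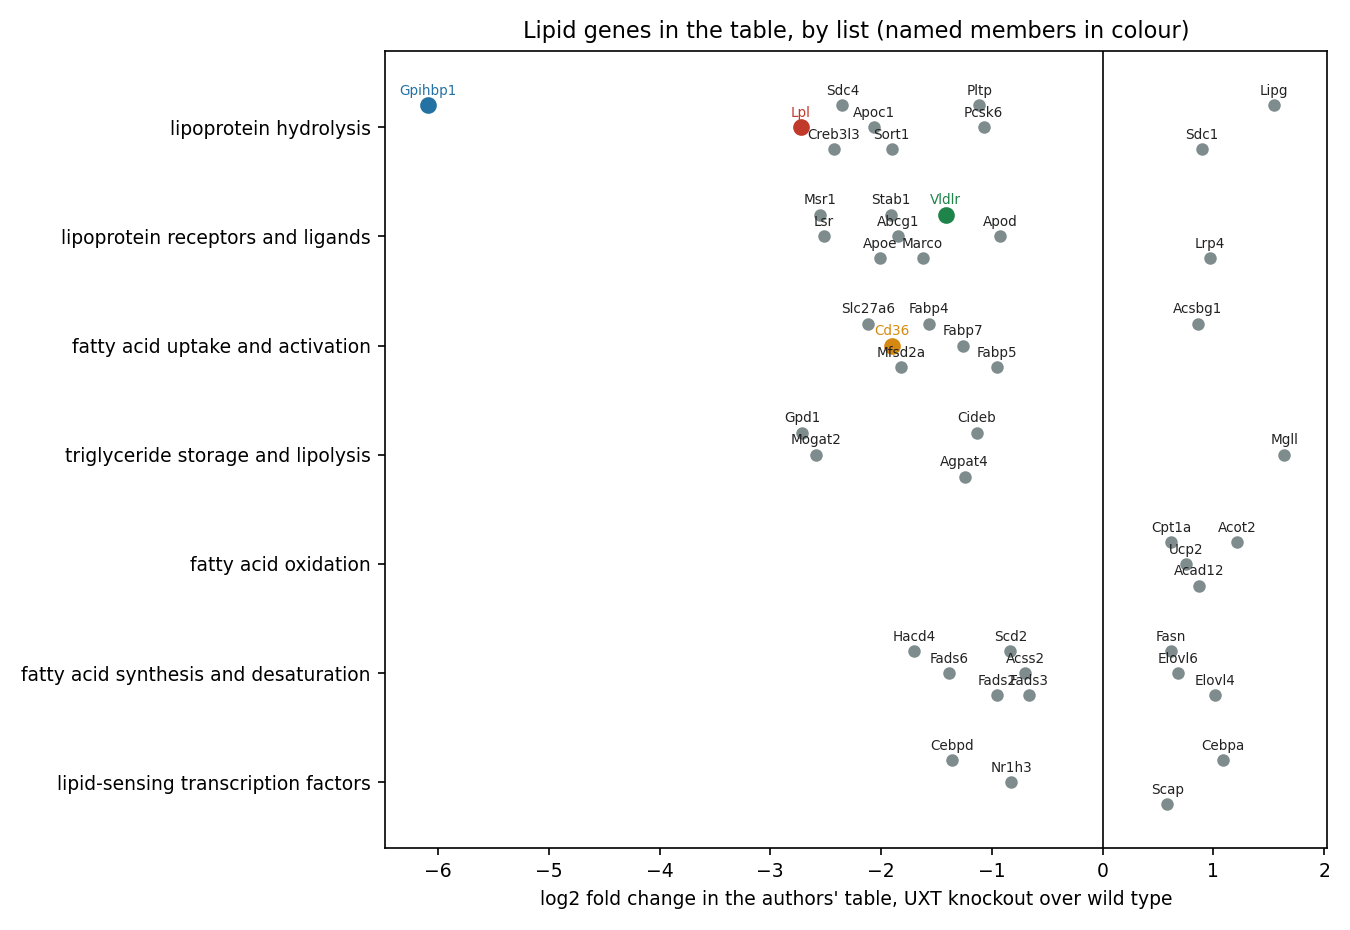
Log2 fold by the authors' deposited table (horizontal axis, knockout over wild type) of the lipid genes in the table, with 1 gene not shown, 1 row of points per list, with the 4 members in colour (vertical offsets within a row carry no value). Genes of lipoprotein hydrolysis, receptors and uptake lie mostly left of 0, the 4 oxidation genes lie right of 0, and Gpihbp1 at -6.09 lies farthest left.

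Cells other than Sertoli cells express the 4 members, and markers of such cells moved in the same libraries. Whether the Sertoli cells themselves expressed each member cannot be told from these bulk libraries. Counts for all marker lists stand beside the shares of all genes in the table. Called lower were 67.5% as deposited, 35.1% after quantile normalization and 31.4% after centring. Called higher were 32.1%, 32.2% and 34.3%. Of 28 endothelial markers, 24 were in the table and all 24 fell (22 after quantile normalization, 21 after centring), and the median fold was 10.7 in the authors' deposited table. The log2 of their summed level ran from 14.47 to 14.65 in the wild-type and from 13.55 to 13.75 in the knockout libraries. Such a sum, here and for the other lists, is weighted towards the markers with the highest values. It is no measure of the amount of RNA of a cell type. None of these markers was at 0 in any library, but the transformation is unstated, so this does not show that each was detected. Their folds were uneven: Dll4 fell 124-fold, Vwf 51.8-fold and Tie1 36.7-fold, but Cdh5, the gene for vascular cadherin named after its value was seen, 1.73-fold in the authors' deposited table. The fold of Gpihbp1 lay between those of Dll4 and Vwf. The part of endothelial cells in the lower Gpihbp1 values was not tested, and fewer cells of a type and less RNA per cell cannot be told apart in these bulk libraries.

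Of 27 macrophage markers, 26 were in the table and all 26 fell (25 after quantile normalization, 24 after centring), and the median fold was 5.84 in the authors' deposited table. The log2 of their summed level ran from 15.29 to 15.65 in the wild-type and from 13.84 to 14.08 in the knockout libraries. Itgam fell 14.7-fold, Fcer1g 9.46-fold and Fcgr1 8.86-fold in the authors' deposited table. Macrophages express Lpl and Cd36, and the list also held Msr1. Their part in the values of Lpl, Cd36, Msr1 and Marco was not tested.

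Sertoli cell markers moved too. Of 26, 19 were in the table, with 18 lower and 1 higher (13 lower and 1 higher after quantile normalization, 13 lower and 2 higher after centring), and the list's median was 3.09-fold lower by the authors' deposited table. The log2 of their summed level ran from 17.87 to 18.23 in the wild-type and from 16.89 to 17.16 in the knockout libraries. Shbg fell 17.2-fold, Cst12 7.94-fold and Trf 6.33-fold in the authors' deposited table. Their part in the values of the 4 members was not tested. Defining Sertoli cell genes such as Gata4, Fshr and Nr5a1 were not analysed here, while Wt1 (12.27 to 12.48) and Sox9 (11.61 to 11.90) had values in every wild-type library. Both, chosen with their values known, were lower in the knockout (10.87 to 11.05 and 11.12 to 11.37), by folds of 4.47 and 1.81 in the authors' deposited table.

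Of 12 adipocyte markers only Gpd1, Fabp4 and Adrb3 were in the table, and all 3 fell, with folds of 6.56, 2.97 and 2.71 in the authors' deposited table (only Gpd1 was called after either rescaling). The log2 of their summed level ran from 8.05 to 8.32 in the wild-type and from 7.12 to 7.35 in the knockout libraries. The defining adipocyte genes Adipoq, Plin1 and Lep were not analysed here. All 8 myoid markers in the table, of 10, fell (6 after quantile normalization, 7 after centring), with Myh11 4.26-fold, Cnn1 3.13-fold and Des 3.04-fold lower in the authors' deposited table. All 4 fibroblast markers in the table, of 12, fell (2 after either rescaling), led by Col1a1 at 2.48-fold, Col3a1 at 1.92-fold and Dcn at 1.81-fold in the authors' deposited table. Of 13 germ cell markers 2 were in the table, and Kit and Sycp3 fell by folds of 4.19 and 2.73 in the authors' deposited table (1 after either rescaling, with Sycp3 turned). Leydig cell markers went the other way: all 4 in the table, of 10, rose, also after either rescaling, with Hsd3b1 5.0-fold, Fdx1 3.0-fold and Star 2.01-fold higher in the authors' deposited table. Lists of 2 to 4 genes are short beside a table in which 67.5% of genes were called lower and 32.1% higher. The part of these cell types in the members' values was not tested.

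**Figure D4:**
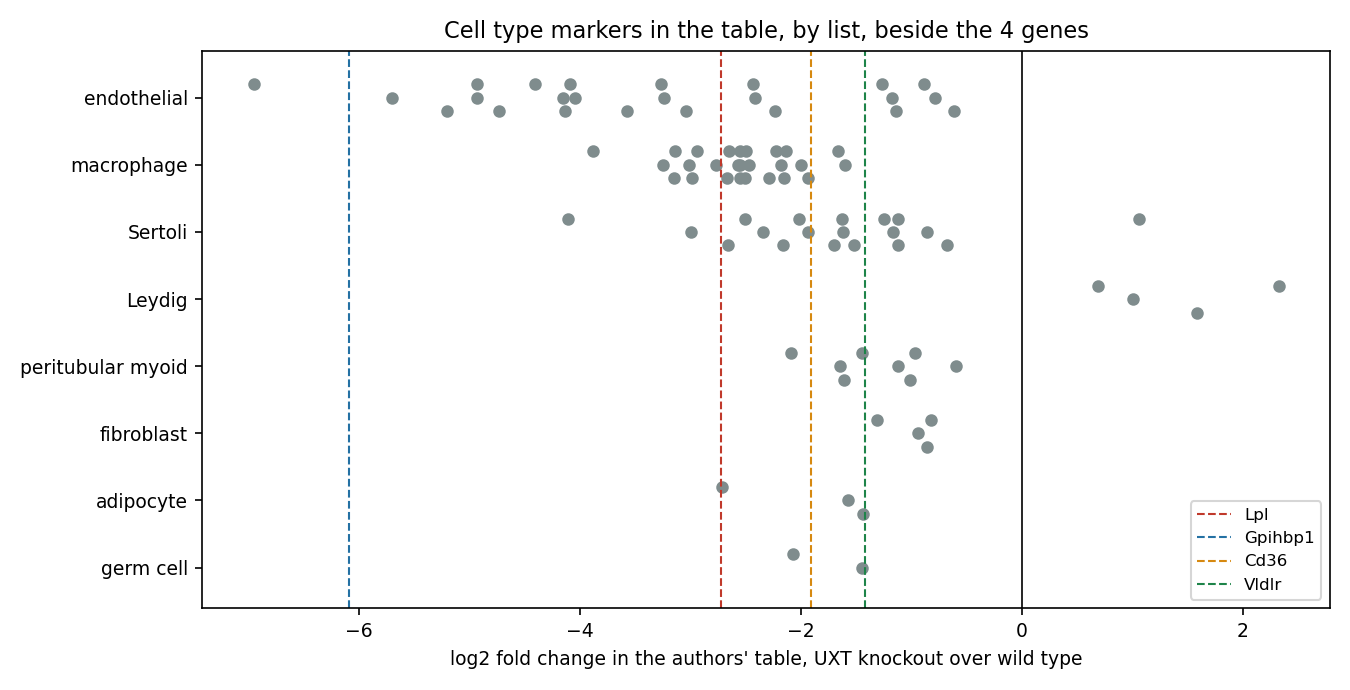
Log2 fold by the authors' deposited table (horizontal axis, knockout over wild type) of each cell type marker in the table, 1 row of points per list, with the 4 members as dashed vertical lines (offsets within a row carry no value). The line of Gpihbp1 at -6.09 falls among the endothelial markers with the largest falls, the lines of Lpl and Cd36 pass within the endothelial, macrophage and Sertoli cell points, that of Vldlr lies right of all macrophage points, and the 4 Leydig cell markers lie right of 0.

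The genomic neighbours of the members were described over 500 kb on either side, between the 5' ends of genes, a distance chosen after the data were seen. Of 21924 protein-coding gene names in the annotation, 13.9% were in the table. Near Lpl 3 of 7 protein-coding genes were in the table, namely Slc18a1 (3.81-fold lower), Atp6v1b2 (1.6-fold lower) and Zfp930 (1.6-fold higher in the authors' deposited table). Near Gpihbp1 it was 6 of 27, with 3 lower and 3 higher. The nearest of these, Top1mt at 82.2 kb, was 1.68-fold higher in the authors' deposited table. Near Cd36 it was 2 of 4, both lower, Sema3c by 3.69-fold and Gnai1 by 1.63-fold in the authors' deposited table. Near Vldlr 0 of 3 were in the table.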

How the data were processed

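Per the submitters' processing notes, the tools included FastQC, STAR and DESeq2 and the build was mm10, with no versions. The read counter and its use of strand are not given in the sources used here. What the authors deposited is 1 table of genes selected on these libraries. Per the file headers it holds a signed fold score, a log2 fold change, p-values, adjusted p-values and an average log2 expression. The deposited values per library are on a log2 scale, normalized by the authors by an unstated transformation. No counts were used, so depth is unknown. Of 3261 rows, 4 that shared a symbol were left out. The test was that of limma 3.58.1 (R 4.3.3), using a mean-variance trend, all 6 libraries and no covariate, after the code was tested on simulated data, and adjusted by the Benjamini-Hochberg method over 3257 genes. Limma's calls are not independent of the authors' selection. The members and lists were chosen with earlier results of these data known. 1 gene of the lists is counted but not reported here. Named genes were the members, up to 6 genes of a pathway list and 3 of a marker list with the largest fold, and 3 nearest profiles per member. Lipg, Sdc1, Lrp4, Apod, Acsbg1, Cdh5, Wt1, Sox9 and the genomic neighbours were named outside this rule, with their values known. Alternatives were quantile normalization, median centring, leaving out each library, a replicate block, a stricter threshold, a low-value filter and no trend.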

Additional observations from a re-analysis of the deposited data

How the results depend on the processing

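The 4 members were lower after quantile normalization, after centring, with each library left out and by the authors' deposited fold; the other alternatives concern only calls, and the low-value filter removed Gpihbp1. Leaving out each library in turn gave differences from -2.24 to -1.85 for Lpl, -1.70 to -1.61 for Gpihbp1, -1.33 to -1.16 for Cd36 and -1.01 to -0.85 for Vldlr. After quantile normalization the difference was -1.26 for Gpihbp1, -1.07 for Cd36 and -0.75 for Vldlr. After centring on the table's median it was -1.77 for Lpl, -1.35 for Gpihbp1, -0.93 for Cd36 and -0.63 for Vldlr. The log2 folds in the authors' deposited table were -2.73, -6.09, -1.90 and -1.42 for Lpl, Gpihbp1, Cd36 and Vldlr. Genes called lower numbered 2200, but 1143 after quantile normalization (with 1049 higher) and 1227 with a mean log2 value of at least 8, where fewer genes were tested. That filter left 5 lower and 1 higher of the lipoprotein hydrolysis genes, 1 lower triglyceride gene, 1 lower lipid-sensing factor, 8 endothelial markers, 0 adipocyte and 0 germ cell markers and 0 higher Sertoli cell markers. Quantile normalization left 1 lower lipid-sensing factor, 2 fibroblast, 1 adipocyte and 1 germ cell marker. An adjusted p under 0.01 left 1 lower lipid-sensing factor and 0 higher Sertoli cell markers. Leaving out 1 library gave 1 to 2 lower lipid-sensing factors (1 without wild-type replicate 3 or knockout replicate 2) and 0 to 1 higher Sertoli cell markers (0 without wild-type replicate 1 or knockout replicate 2 or 3). Genes with a mean below 8 were left out of the filtered fit, so their loss from its counts is not a lost call. Quantile normalization and centring act on selected genes and can also remove real change. The cause of the other changes was not tested. With the replicate number as a block, limma called 1045 genes higher and 2207 lower. Whether the numbers pair the samples was not settled. Deviations of same-numbered libraries correlated at 0.177, -0.0731 and -0.00388 across genes. Those of differently numbered libraries ran from -0.203 to 0.196, so the correlations cannot decide it. Depth is unknown, so no counting error could be given.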
